A study of Homo sapiens with 6 samples.

Results

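The genes described here code for the integrins, the laminins and 7 further proteins of the basement membrane and its receptors. They were chosen by symbol and not by a cut on measured values, although earlier results of these data were known at the time. The rule took every integrin alpha and beta chain and every laminin alpha, beta and gamma chain, together with FN1, VTN, HSPG2, NID1, NID2, AGRN and DAG1. This gave 45 of the 18056 genes listed in the deposited table, made up of 18 integrin alpha chains, 8 integrin beta chains, 12 laminin chains and the 7 others. Enough counts for a test were present for 31 of the 45, namely 11 integrin alpha chains, 5 integrin beta chains, 9 laminin chains and 6 of the others.

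Bulk RNA was sequenced from human forebrain organoids, 3-dimensional cultures in which stem cells differentiate into layered neural tissue. All came from 1 established pluripotent stem cell line, DYR0100, which is labelled WT, and were grown with a dorsal forebrain protocol. The 3 libraries of the treated group came from organoids given 5 µM Aβ42, a peptide cut from the amyloid precursor protein, for 6 days, and the 3 libraries of the control group came from organoids given vehicle. Both groups therefore shared the line, the WT label, the protocol and 1 batch label, and no second line or clone was examined. The age of the organoids, the vehicle and the aggregation state of the peptide were not given in the sources used here.

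Integrins are transmembrane receptors built from an alpha and a beta chain, and they tie the cytoskeleton to the extracellular matrix. Laminins are cross-shaped trimers of an alpha, a beta and a gamma chain that polymerise into the sheet of the basement membrane, where nidogens, perlecan and agrin join them to the collagen network. In the developing cortex the end feet of radial glia, the neural stem cells, hold on to the pial basement membrane through integrins and dystroglycan, and loss of this attachment is known to disturb cortical layering.

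Total estimated counts per library lay between 16465390 and 16742958. Markers of the labelled tissue were present: LHX2, a transcription factor of the dorsal forebrain, was at 164 to 188 TPM (a read density that corrects for gene length and library total), and 9 of 10 dorsal forebrain markers could be tested. Choroid plexus markers were present as well, and summed to 2848.4 to 7586.6 TPM over all libraries. Among the 11 microglial and myeloid markers none had enough counts, and C1QA, C1QB, C1QC, TREM2 and TYROBP were at 0 in every library. Dorsal forebrain markers summed to 1687.1 to 1744.6 TPM in vehicle and 1526.6 to 1664.1 TPM with Aβ42. EOMES, a marker of intermediate progenitors, had mean CPM of 109 ± 13.2 (vehicle) and 61.2 ± 13.5 (Aβ42; SD, n = 3), with no overlap between libraries. Endothelial markers summed to 11.4 to 19.5 TPM, and ERG was at 0 throughout. Aβ42 replicate 2 lay closer to the vehicle mean than the other Aβ42 libraries in 57.9% of all tested genes and in 22 of the 31 tested members. The libraries numbered 2 also deviated together from their group means. For both reasons values with the replicate number as a block, and values without Aβ42 replicate 2, are given beside the results that they change. In bulk RNA, fewer cells of a type and less RNA per cell cannot be told apart.

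In level, the receptors led. Over all 6 libraries ITGB1, the beta chain shared by most laminin and collagen receptors, had the highest mean of the members at 139 TPM. DAG1, which encodes both chains of the laminin receptor dystroglycan, followed at 72.1 TPM, and ITGAV, an alpha chain of receptors for RGD-containing ligands, at 67.6 TPM. ITGB8, whose product pairs with the αv chain and activates latent TGF-β, was at 57.6 TPM, close to AGRN, the heparan sulfate proteoglycan agrin, at 57.4 TPM. ITGA6, the alpha chain of the main laminin receptors of neural stem cells, was at 45.1 TPM. The most abundant laminin chain was LAMC1, the common gamma chain, at 41.5 TPM, ahead of LAMB2 at 25.5 TPM and LAMB1 at 25 TPM.

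**Figure D1:**
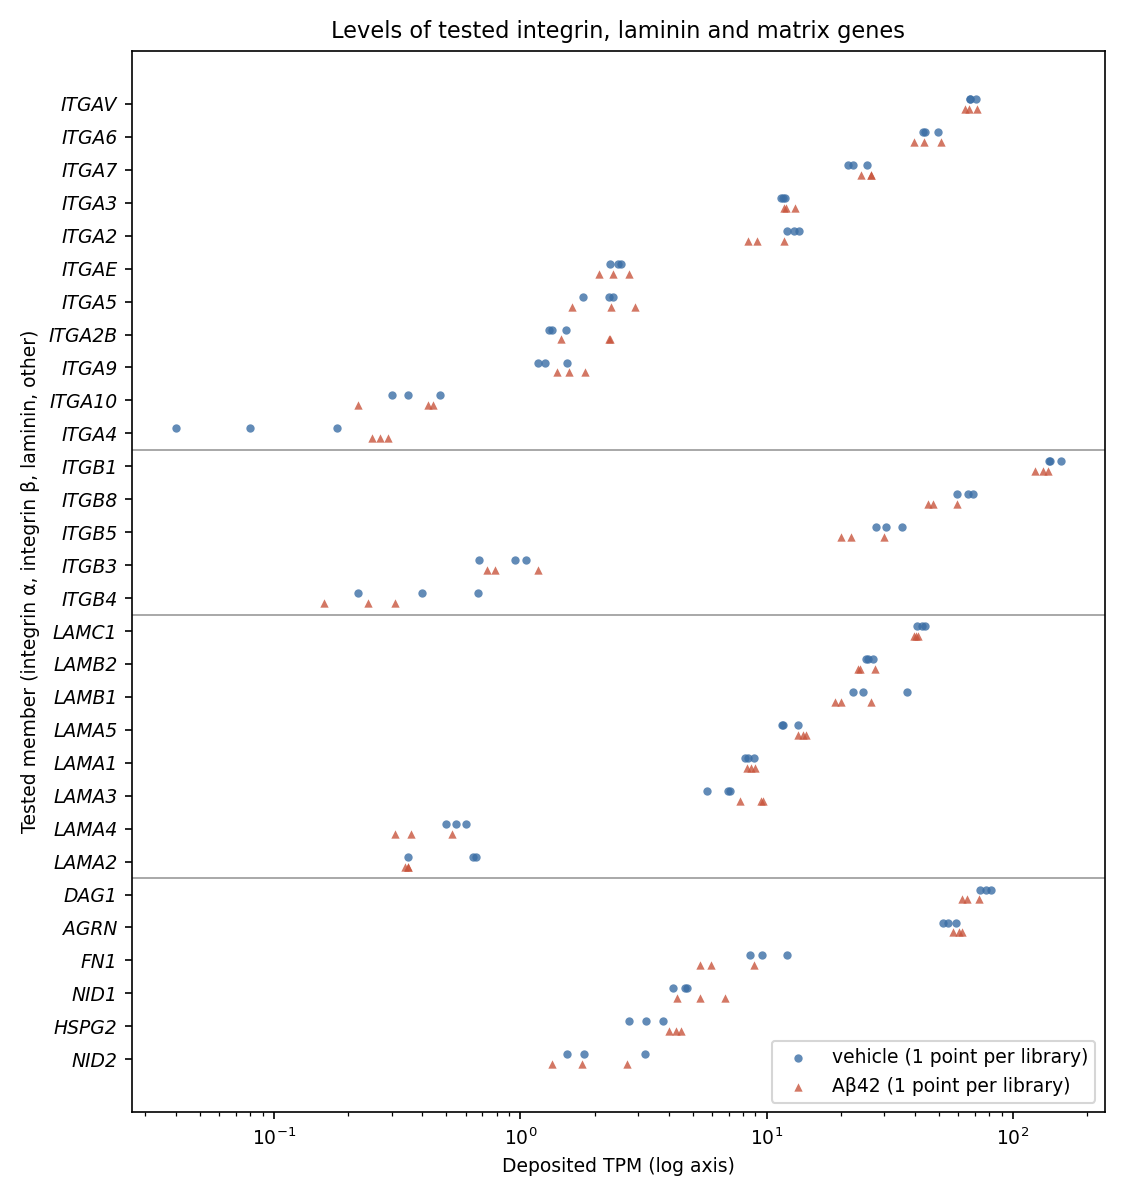
Levels of 30 tested genes in deposited TPM on a log axis, with 1 point per library (circles for the 3 vehicle libraries, triangles for the 3 Aβ42 libraries), in blocks of integrin alpha chains, integrin beta chains, laminins and others, each block ordered by its mean. The means run from 139 TPM for ITGB1 to 0.185 TPM for ITGA4, a wider spread than that between the groups of any 1 gene.

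Within each chain type, few genes carried most of the transcripts. ITGB1 made up 60.0% ± 1.24 (SD, n = 3) of the summed TPM of the integrin beta chains in vehicle and 63.6% ± 2.66 with Aβ42, and ITGB8 was next with 26.5% ± 1.54 and 24.3% ± 1.3. Among the alpha chains ITGAV held 40.2% ± 0.766 and 39.7% ± 1.74, and ITGA6 26.9% ± 1.12 and 26.4% ± 2.39. LAMC1 held 95.9% to 98.4% of the laminin gamma chain TPM in every library. The laminin alpha chains were more evenly divided: in vehicle LAMA5 held 40.7% to 44.5%, LAMA1 28% to 31.4% and LAMA3 21.4% to 24.6%. LAMA2 and LAMA4, the alpha chains best known from muscle and vessel walls, each held at most 2.47% of that sum in any library.

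Another 14 members had too few counts for a test. These were the leukocyte integrin chains ITGAL, ITGAM, ITGAX, ITGAD, ITGB2 and ITGB7, together with ITGA1, ITGA8, ITGA11, ITGB6, LAMB3, LAMB4, LAMC3 and VTN, the gene of the plasma protein vitronectin. ITGA11, a collagen receptor chain, had the most, with 2 to 12 counts per library, and ITGAD the fewest, with 1 count in all 6 libraries together. VTN had 1 to 7 counts and ITGB2, the shared chain of the leukocyte integrins, 0 to 2. A count of 0 allows up to 3 counts, or 0.179 to 0.182 CPM (counts scaled to library size) depending on the library. When edgeR's quasi-likelihood test was run on all 45 members without the count filter, none of these had an unadjusted p under 0.05. At such counts only large differences could be detected.

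The comparison of Aβ42 with vehicle asks which of these transcripts differ after exposure to the peptide. At an adjusted p-value under 0.05 in edgeR's quasi-likelihood test, 0 of the 31 members passed, and neither did any of the 13842 genes tested (0%). The smallest adjusted value of a member was 0.0837. At an unadjusted p under 0.05 there were 12 members, or 38.7%, where the share over all tested genes was 23.9%. Of these, 7 were higher with Aβ42 (ITGA2B, ITGA4, ITGA7, LAMA3, LAMA5, HSPG2 and AGRN) and 5 were lower (ITGA2, ITGB8, LAMA2, FN1 and DAG1), against 12.4% of all genes higher and 11.5% lower. ITGA4 met the count filter only through its Aβ42 libraries, so its direction and its lack of overlap are not support. With a filter on a mean of at least 10 counts it was not tested, and 6 members were higher and 5 lower. The CPM of the 3 Aβ42 libraries lay wholly above or below those of the 3 vehicle libraries in 7 members (22.6%, against 27% of all genes): ITGA4, ITGA2B, HSPG2, LAMA3 and LAMA5 above (13.6% of all genes), ITGA2 and DAG1 below (13.4%).

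When the fit took the replicate number as a block, 10 members passed after adjustment, or 32.3%, where 14.2% of all genes did. HSPG2, LAMA3, LAMA5 and AGRN were the 4 higher ones, and FN1, ITGB8, ITGA2, DAG1, ITGB5 and LAMB1 the 6 lower ones, where 7.12% of all genes were higher and 7.05% lower. Without Aβ42 replicate 2 there were 12 of the 32 members then tested (37.5%, against 23.1% of all genes), 7 of them higher (11.5% of all genes) and 5 lower (11.6%). When both libraries numbered 2 were left out of the fit with the block, an alternative chosen after the data were seen, 9 members passed (29%, against 14.7% of all genes). HSPG2, LAMA3, ITGA7 and NID1 were higher (7.31% of all genes), and FN1, ITGB8, ITGA2, DAG1 and ITGB5 lower (7.36%). DESeq2 called 5 without the block, HSPG2 and LAMA3 as higher and FN1, ITGA2 and ITGB8 as lower, where it called 5.88% of all genes. HSPG2, LAMA3, FN1, ITGA2 and ITGB8 passed in all 4 of these fits. Of 18 alternatives each passed in 5, these 4 and the block with a length correction, and not in the main fit. The block was taken from these same data, and Aβ42 replicate 2 was the Aβ42 library most often nearest to vehicle. Passing in these fits is therefore not independent support.

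The 31 members did not shift in 1 direction. Their median log2 fold change was 0.02, with 16 above 0 and 15 below, and the median over all tested genes was 0.00. Single members spread from -0.80 for ITGB4 to 1.40 for ITGA4, both of which had low counts, and ITGA4 met the count filter only through its Aβ42 libraries. Whatever the sign, the median log2 difference had a size of 0.24 over the members and 0.12 over all genes. By chain type, the integrin alpha chains had a median of 0.11, the beta chains of -0.31 and the laminins of -0.03.

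**Figure D2:**
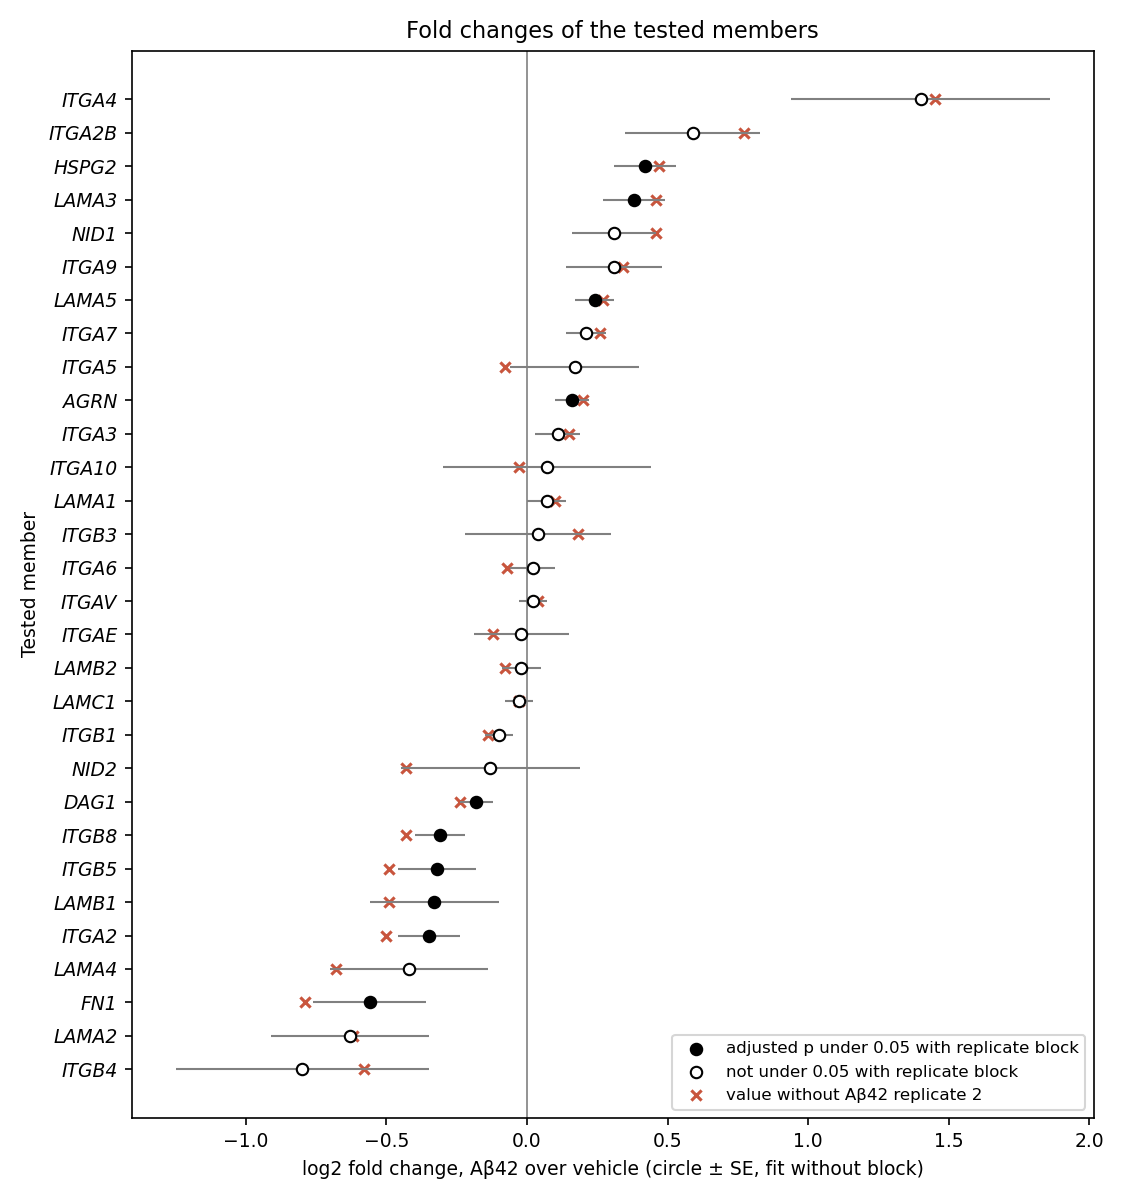
Log2 fold change of Aβ42 over vehicle for 30 tested genes, ordered by size, from edgeR's quasi-likelihood test without the block (circles, with bars of 1 standard error) and without Aβ42 replicate 2 (crosses). Filled circles mark the 10 members with an adjusted p under 0.05 under the block, and the circles run from -0.80 (ITGB4) to 1.40 (ITGA4).

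The DNA just upstream of the RefSeq transcription start is shown for HSPG2 and LAMA3, the higher members with the smallest p-values, and for FN1, the lower member with the smallest p-value under the block. Sequences are those of RefSeq on GRCh38.p14, on the strand of the gene, and each ends at that start or, for LAMA3 and FN1, where the first GENCODE exon of the gene in the window begins. Capitals mark GC boxes (GGGCGG, the binding motif of Sp1-type factors) and the cAMP response element (CRE, TGACGTCA), searched on both strands (a GC box on the other strand reads CCGCCC), with overlapping matches counted separately. The stretches are chr1:21937311-21937560 (minus strand, 8 GC boxes), chr18:23872770-23872839 (plus strand, 1 GC box) and chr2:215436173-215436318 (minus strand, 3 overlapping GC boxes and 1 CRE).
HSPG2: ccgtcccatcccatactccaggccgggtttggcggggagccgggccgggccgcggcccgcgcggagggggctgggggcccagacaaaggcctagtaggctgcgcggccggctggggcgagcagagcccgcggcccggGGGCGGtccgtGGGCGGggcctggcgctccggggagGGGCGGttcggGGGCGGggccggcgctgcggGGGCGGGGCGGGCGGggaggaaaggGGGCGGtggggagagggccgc
LAMA3: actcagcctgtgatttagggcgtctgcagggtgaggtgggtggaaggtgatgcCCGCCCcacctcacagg
FN1: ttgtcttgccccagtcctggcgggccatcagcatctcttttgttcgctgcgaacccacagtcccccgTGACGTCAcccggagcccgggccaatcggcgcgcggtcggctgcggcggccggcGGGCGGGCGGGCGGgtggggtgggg
Over the 250 bases before the start, GC boxes were present for 42.6% of all 35116 RefSeq promoters in the table and a CRE for 1.65%. For 32 of the 45 members an entry was listed, with 40 entries among them. A GC box was present in 23 of these 40 entries, and 19 of the 32 members had one in at least 1 entry. The CRE of FN1 begins 183 bases before the start, and no other member with an entry had one. The HSPG2 window is 82.8% G and C, where the median over all promoters was 58%. The LAMA3 entry lies inside the gene, 183.6 kb downstream of its first GENCODE start, at the start of a short transcript, so the promoter of the long LAMA3 transcripts is not the one shown.

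Among the integrin beta chains, ITGB8 had the smallest p-value. Its transcript (Entrez gene 3696, chr7:20330702-20415754 on GRCh38) was at 199, 216 and 227 CPM in vehicle replicates 1 to 3 and at 161, 201 and 156 CPM in Aβ42 replicates 1 to 3. Aβ42 replicates 1 and 3 lay below every vehicle library, whereas replicate 2 lay within the vehicle range. The means were 214 ± 14.2 and 173 ± 24.3 CPM (SD, n = 3), a log2 fold change of -0.31 ± 0.09 (SE) with an adjusted p of 0.115. With the block the adjusted p was 0.0114, and without Aβ42 replicate 2 the log2 fold change was -0.43, with an adjusted p of 0.000464.

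ITGB5, the other main partner of the αv chain here, was singled out after its values were seen. It was at 36, 45.1 and 38.6 CPM in vehicle and at 27.4, 39.1 and 29.5 CPM with Aβ42. In both groups replicate 2 was the highest library, and within each replicate number the Aβ42 library was the lower one. Its log2 fold change was -0.32 ± 0.14, with an adjusted p of 0.21, of 0.00632 with the block and of 0.00389 without Aβ42 replicate 2, where the log2 fold change was -0.49. ITGB3, the platelet-type partner of αv, had a log2 fold change of 0.04 at a mean of 0.897 TPM.

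ITGB1 differed less. Its CPM values were 199.5, 217 and 201 in vehicle and 192, 200.3 and 182 with Aβ42, so the groups overlapped by 1 library each. The log2 fold change was -0.10 ± 0.05 with an adjusted p of 0.263, and of 0.176 with the block. ITGB4, which pairs with the α6 chain in hemidesmosomes, had 6 to 24 counts per library and a log2 fold change of -0.80 ± 0.45 (adjusted p 0.297). Summed over the beta chains, TPM came to 228, 259 and 242 in the vehicle libraries and to 202, 230 and 192 in the Aβ42 libraries, which left only the 230 TPM of Aβ42 replicate 2 above the lowest vehicle library.

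The 2 most abundant alpha chains stood at similar levels in both groups. ITGAV was at 183, 179 and 192 CPM in the vehicle libraries and at 198, 182 and 181 CPM in the Aβ42 libraries, a log2 difference of 0.02 ± 0.05 (adjusted p 0.842). ITGA6 was at 92.1, 91.1 and 103 CPM in the vehicle libraries and at 94, 108 and 87.8 CPM in the Aβ42 libraries, a log2 difference of 0.02 ± 0.08 (adjusted p 0.916). Both ranges overlapped, and the sign of each value turned on the TPM scales and on leaving out single libraries.

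ITGA2 was the alpha chain with the smallest p-value. Its product forms the collagen and laminin receptor α2β1. The gene (Entrez 3673, chr5:52989326-53094779) was at 38.1, 39.8 and 42.1 CPM in vehicle and at 26.6, 37.5 and 29.9 CPM with Aβ42. All 3 Aβ42 libraries lay below all 3 vehicle libraries, replicate 2 by a small margin. Mean CPM was 40.0 ± 2.03 and 31.4 ± 5.59, and the log2 fold change was -0.35 ± 0.11, with an adjusted p of 0.116. With the block the adjusted p was 0.0116, and without Aβ42 replicate 2 the log2 fold change was -0.50, with an adjusted p of 0.00108.

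ITGA7, the laminin receptor chain known from muscle and glia, was at 33.4, 38.2 and 34.3 CPM in vehicle and at 41.7, 37.9 and 42.8 CPM with Aβ42. The libraries numbered 2 were nearly equal, whereas Aβ42 replicates 1 and 3 lay above every vehicle library. Between groups the log2 fold change was 0.21 ± 0.07, with adjusted p-values of 0.136 and, with the block, 0.0796. It passed without Aβ42 replicate 2 (0.26, adjusted p 0.0226) and with both libraries numbered 2 left out of the block (0.32, adjusted p 0.0178). ITGA7 (chr12:55684568-55716043) overlaps METTL7B and BLOC1S1 on the opposite strand, and whether counting used strand is not given, so whether reads of these genes were told apart is not known.

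ITGA4 and ITGA2B, the fibronectin and VCAM1 receptor chain of lymphocytes and neural crest and the fibrinogen receptor chain of platelets, were rare. The estimated counts of ITGA4 were 2, 3.62 and 7.83 in vehicle and 13.23, 11.63 and 12.66 with Aβ42, a log2 fold change of 1.40 ± 0.46 with an adjusted p of 0.117 and, with the block, 0.0558. Those of ITGA2B were 27, 27 and 30 in vehicle and 46, 32 and 50 with Aβ42 (log2 fold change 0.59 ± 0.24, adjusted p 0.168). For both genes all Aβ42 libraries were above all vehicle libraries, but ITGA4 met the count filter only through its Aβ42 libraries. ITGA2B passed without Aβ42 replicate 2, at 0.77 with an adjusted p of 0.0315, and ITGA4 did not (0.0632). Their shares of the alpha chain TPM stayed at or below 1.45% in every library.

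The other alpha chains with enough counts had an unadjusted p of at least 0.0948. ITGA3, a laminin receptor chain, had a log2 fold change of 0.11 and ITGA9, a tenascin receptor chain, one of 0.31. ITGA5, the classical fibronectin receptor chain, was at 0.17, or -0.08 without Aβ42 replicate 2, ITGA10, a collagen receptor chain, at 0.07, or -0.03 without that library, and ITGAE at -0.02.

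Dystroglycan was lower by a smaller step. DAG1 (Entrez 1605, chr3:49468703-49535618) was at 156, 169 and 164 CPM in vehicle and at 139, 156 and 137 CPM with Aβ42. The highest Aβ42 library and the lowest vehicle library were level at 156 CPM, with the Aβ42 library lower only beyond the printed digits, and the others were apart. The log2 fold change was -0.18 ± 0.06 (adjusted p 0.12, with the block 0.0307). Without Aβ42 replicate 2 it was -0.24, with an adjusted p of 0.00495.

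Dystroglycan binds laminin only through a sugar chain that a set of glycosyltransferases builds, and it anchors to the cytoskeleton through the dystrophin complex. Of 18 genes of the sugar chain, 17 were tested, with a median log2 fold change of 0.02. At an unadjusted p under 0.05, 1 was higher and 1 lower, where 12.4% and 11.5% of all genes were. The higher one was the glycosyltransferase gene POMGNT2 (0.15), and none of the list passed with the block. POMT1, which starts the chain, was at 0.13. Of 16 genes of the dystrophin complex 15 were tested, with 1 higher and 3 lower at an unadjusted p under 0.05 (against 12.4% and 11.5% of all genes) and a median of -0.07. SGCD, the δ-sarcoglycan gene, had means of 6.57 ± 0.697 and 4.18 ± 1.27 CPM in vehicle and Aβ42 and a log2 fold change of -0.65 ± 0.20 with adjusted p-values of 0.108 and, with the block, 0.0102. SGCB, the β-sarcoglycan gene, was at -0.21 ± 0.06 (0.0888, with the block 0.0229), and the dystrobrevin genes DTNA and DTNB at 0.10 (0.2) and 0.09 (0.426). With the block 3 genes of this list passed, all lower (against 7.05% of all genes).

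**Figure D3:**
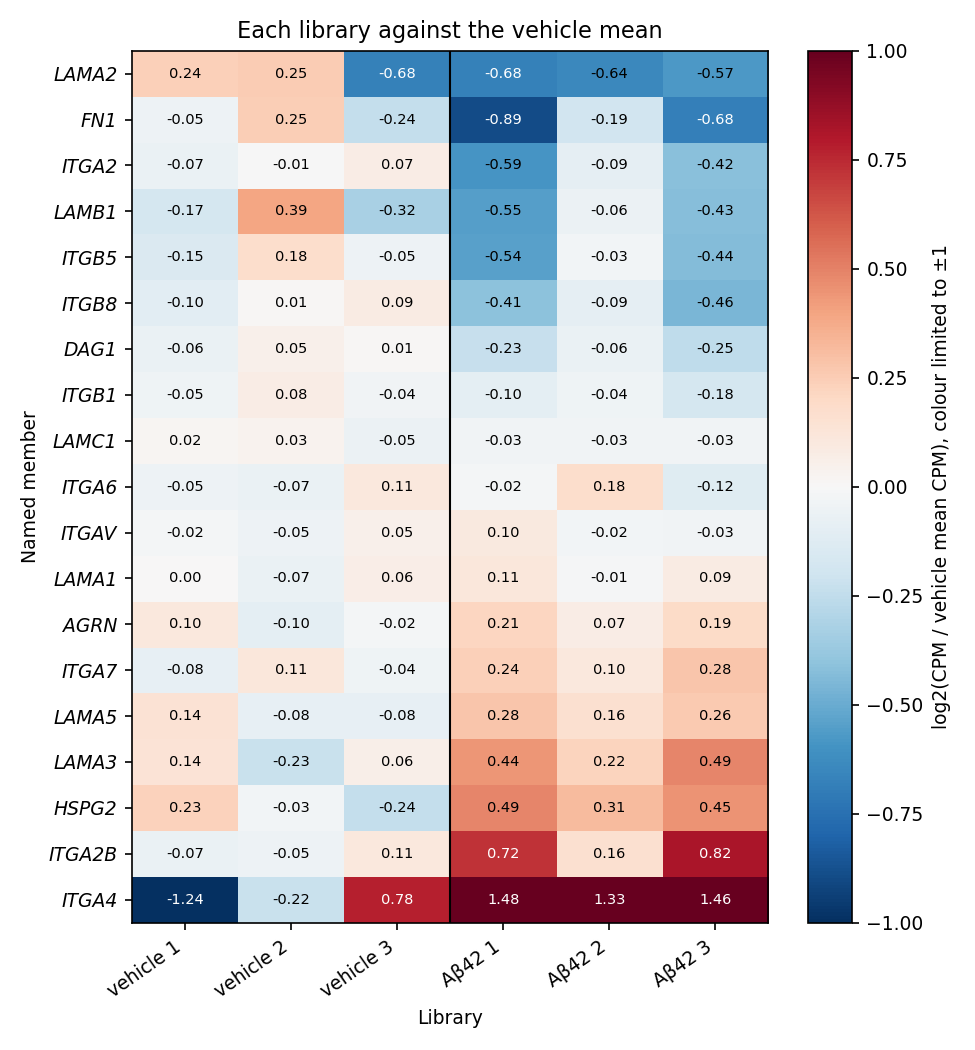
Heat map of the log2 ratio of each library's CPM to the vehicle mean for 19 named members, with the value printed in each cell and the colour limited to ±1. The column of Aβ42 replicate 2 is paler than those of Aβ42 replicates 1 and 3 in most members, and it is the Aβ42 library nearest to the vehicle mean in 11 of the 12 members with an unadjusted p under 0.05 (91.7%, against 82.3% of all genes with such a p).

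Of the laminin alpha chains, LAMA3 and LAMA5 were higher with Aβ42. LAMA3 (Entrez 3909, chr18:23689443-23956222), the alpha chain of laminin-332 and known best from epithelia, was at 22.8, 17.7 and 21.6 CPM in vehicle and at 28.1, 24.1 and 29 CPM with Aβ42. Every Aβ42 library lay above every vehicle library, and replicate 2 was the lowest of both groups. Means were 20.7 ± 2.69 and 27.1 ± 2.65 CPM and the log2 fold change 0.38 ± 0.11, with adjusted p-values of 0.0889 and, with the block, 0.00387. Without Aβ42 replicate 2 it was 0.46, with an adjusted p of 0.00649. Its share of the laminin alpha TPM was 23.2% ± 1.61 in vehicle and 27.7% ± 1.72 with Aβ42.

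LAMA5 (Entrez 3911, chr20:62307955-62367312), the most abundant alpha chain here and a component of the pial and vascular basement membranes, was at 61.9, 53 and 53 CPM in vehicle and at 68, 62.6 and 67.2 CPM with Aβ42. The groups did not overlap, although vehicle replicate 1 came within 1 CPM of Aβ42 replicate 2. The log2 fold change was 0.24 ± 0.07 (adjusted p 0.1, with the block 0.0174), and with the libraries numbered 2 left out of the block the adjusted p was 0.0538. LAMA5 was at 0.27 without Aβ42 replicate 2, with an adjusted p of 0.0168. LAMA1, the alpha chain of the early embryonic laminin, had ranges of 31.3 to 34.3 CPM in vehicle and 32.6 to 35.5 CPM with Aβ42, a log2 fold change of 0.07 ± 0.07 (adjusted p 0.575). The summed TPM of the alpha chains came to 30.1, 26.8 and 28.3 in the vehicle libraries and to 33.8, 30.4 and 32.8 in the Aβ42 libraries, so these sums did not overlap. LAMA5 overlaps ADRM1 on the opposite strand.

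LAMA2, the alpha chain of muscle and vascular laminin, had 42, 42 and 22 counts in vehicle and 22, 23 and 24 with Aβ42. Vehicle replicate 3 was thus as low as the Aβ42 libraries, and the log2 fold change of -0.63 ± 0.28 rested on the other vehicle libraries (adjusted p 0.209, with the block 0.137). LAMA4, an endothelial and mural laminin chain, was at -0.42, with an unadjusted p of 0.167. LAMB3, a chain of laminin-332 like LAMA3, had 1 to 8 counts.

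Of the beta and gamma chains that complete the common trimers, LAMB1 had the smallest p under the block. It (Entrez 3912) was at 55.5, 82.3 and 50.1 CPM in vehicle and at 42.8, 60 and 46.5 CPM with Aβ42. In both groups replicate 2 was highest, and within each number the Aβ42 library was the lower one. Its log2 fold change was -0.33 ± 0.23, with an adjusted p of 0.426 and, with the block, of 0.00706. It was -0.08 without vehicle replicate 2, and with both libraries numbered 2 left out of the block it was -0.24 with an adjusted p of 0.0729. LAMB1 overlaps DLD on the opposite strand.

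LAMC1 stood at nearly 1 level in all libraries, at 136, 137 and 129 CPM in vehicle and at 131 CPM in each Aβ42 library (log2 fold change -0.03 ± 0.05, adjusted p 0.686, and 0.01 with a length correction). LAMB2, which replaces LAMB1 in synaptic and mature vascular laminins, had a log2 fold change of -0.02. On the TPM scale the summed beta chains were at 54.4 ± 8.79 in vehicle and 47.1 ± 6.26 with Aβ42, and the summed gamma chains at 43.9 ± 1.26 and 41.4 ± 0.918. The groups overlapped in the beta sums. They did not in the gamma sums, where the highest Aβ42 library had 42.2 TPM and the lowest vehicle library 42.6 TPM. Deposited TPM were shifted down with Aβ42 over the whole table, with a median of -0.04 over all tested genes on log2(TPM + 1). On that scale 18.6% of all genes lay wholly lower and 9% wholly higher. LAMC1, most of the gamma sum, overlapped between groups in CPM.

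The deposited counts and TPM of LAMA3 differed between groups in their ratio, a feature picked out after its values were seen. The ratio reflects the transcript length with which the TPM were computed. Taking LAMC1 in the same library, with its 7889-base GENCODE transcript, as the yardstick, LAMA3 had an implied length of 7.98, 7.83 and 7.8 kb in the vehicle libraries and of 7.14, 7.57 and 7.34 kb in the Aβ42 libraries. The 3 Aβ42 values lay below the 3 vehicle values, with means of 7.87 ± 0.0964 and 7.35 ± 0.22 kb, a difference of -6.67%. An exact permutation test cannot give a p under 0.1 with 3 libraries against 3. In the other 17 members with a mean of at least 200 counts, LAMC1 at 0 by construction among them, the difference was between -1.28% and 1.94%. The groups did not overlap either in HSPG2 and LAMB2, which were lower with Aβ42, and in ITGB1 and ITGB5, which were higher. Members with fewer counts could vary more: the highest library exceeded the lowest by 18.8% in ITGA5, with 45 to 79 counts, and by 12.5% in LAMA3.

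For the comparison with other genes the yardstick was the median gene of the library in place of LAMC1. LAMA3 differed by -6.74% on that scale. Of the 9837 genes examined with it, 99 (1.01%) had groups that did not overlap and a mean over 5% lower with Aβ42. In the higher direction 93 genes met the same rule. GENCODE lists a longest coding LAMA3 transcript of 10.7 kb and the short transcript LAMA3-201 of 5.67 kb, and the implied lengths lie between them. The values per transcript were not analysed here, so a change in the mix of long and short LAMA3 transcripts was not tested. With limma on log2(TPM + 1) and on log2(TPM + 0.1) LAMA3 was also higher at an unadjusted p under 0.05. The other 2 main alpha chains had equal implied lengths in both groups, 9.67 and 9.66 kb for LAMA1 and 11.5 kb in both for LAMA5.

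**Figure D4:**
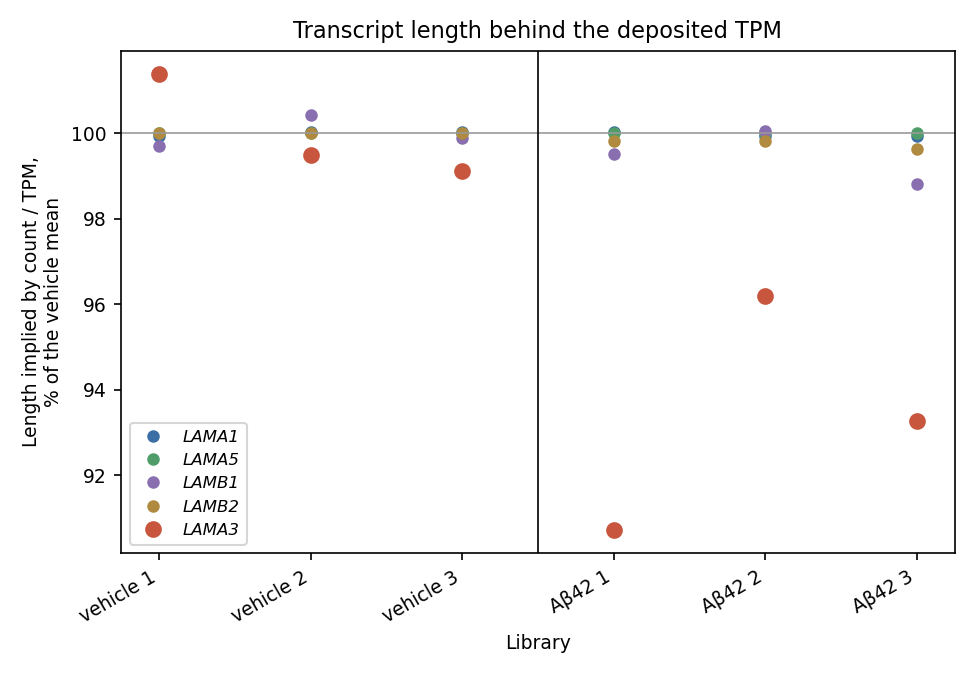
Transcript length implied by the ratio of deposited counts to TPM, as a percentage of the gene's vehicle mean, for 5 laminin chains with 1 point per library; the vertical axis does not start at 0. LAMA3 (large points) lies lower in every Aβ42 library (7.14 to 7.57 kb) than in every vehicle library (7.8 to 7.98 kb), while LAMA1, LAMA5, LAMB1 and LAMB2 stay near their vehicle means and partly cover each other.

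HSPG2, the gene of the proteoglycan perlecan that cross-links laminin and collagen IV, had the smallest p-value of all members. The gene (Entrez 3339, chr1:21822245-21937297) was at 22.3, 18.6 and 16.1 CPM in vehicle and at 26.6, 23.6 and 26 CPM with Aβ42. All 3 Aβ42 libraries lay above all 3 vehicle libraries. Means were 19 ± 3.14 and 25.4 ± 1.57 CPM, and the log2 fold change was 0.42 ± 0.11, with an adjusted p of 0.0837 and, with the block, of 0.00587. It was 0.47 with an adjusted p of 0.0152 once Aβ42 replicate 2 was left out. It overlaps LDLRAD2 on the opposite strand, and some of its estimated counts were fractions, so reads may have been divided between it and another feature.

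AGRN (Entrez 375790, chr1:1020123-1056118) was at 174, 151 and 160 CPM in vehicle and at 188, 170 and 185 CPM with Aβ42. Vehicle replicate 1 lay above Aβ42 replicate 2, so the groups overlapped, while each Aβ42 library was above the vehicle library of its number. Its log2 fold change was 0.16 ± 0.06 (adjusted p 0.155, with the block 0.042), and with the libraries numbered 2 left out of the block the adjusted p was 0.116. AGRN was at 0.20 without Aβ42 replicate 2, with an adjusted p of 0.0246. The nidogens, which link laminin to collagen IV, did not pass in either fit with all 6 libraries. NID1 was at 10.9, 10.5 and 9.45 CPM in vehicle and at 15.7, 9.98 and 12.6 CPM with Aβ42 (log2 fold change 0.31), and it passed without Aβ42 replicate 2 at an adjusted p of 0.0166. NID2 was at -0.13.

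FN1, the gene of fibronectin, was the member with the smallest adjusted p under the block. It (Entrez 2335, chr2:215360440-215436172) was at 31.2, 38.4 and 27.4 CPM in vehicle and at 17.4, 28.3 and 20.1 CPM with Aβ42. Replicate 2 was the highest library of each group, and the groups overlapped because Aβ42 replicate 2 lay above vehicle replicate 3. Means were 32.3 ± 5.54 and 22 ± 5.68 CPM, a log2 fold change of -0.56 ± 0.20 with an adjusted p of 0.158. With the block the adjusted p was 0.000674, and with both libraries numbered 2 left out as well it was 0.0012, at a log2 fold change of -0.65. Leaving out Aβ42 replicate 2 alone put FN1 at -0.79, with an adjusted p of 0.00647.

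The libraries that were high in FN1 were also high in DCN, the gene of decorin and a marker of fibroblasts and meninges, picked out after its values were seen. DCN was at 27.2, 58.6 and 23.4 CPM in vehicle and at 12.1, 24.2 and 12.1 CPM with Aβ42. As in FN1, replicate 2 was the highest library of each group, and the log2 fold change was -1.17 (adjusted p 0.263, with the block 2.28e-06). This order was not particular to DCN. Replicate 2 was also the highest of each group in the choroid plexus markers OTX2 and CLIC6 and the astrocyte markers GJA1 and SPARCL1. It was not in AQP1 and ALDH1L1 of the same 2 lists. The fibroblast and meninges list as a whole did not move 1 way. Of its 10 markers 5 could be tested, with a median log2 fold change of -0.44. At an unadjusted p under 0.05, 1 was higher and 0 lower (12.4% and 11.5% of all genes). With the block 1 was higher and 1 lower (7.12% and 7.05%). The higher one was FOXD1, a transcription factor gene, at 1.32 (adjusted p 0.114, with the block 0.0189), and COL1A1, the collagen I gene, was at 0.46. Both had low counts, 8 to 33 per library for FOXD1 and 10 to 28 for COL1A1. The groups overlapped in both genes, and FOXD1 was at 0.653 CPM in Aβ42 replicate 2 and at 0.661 CPM in vehicle replicate 1. The summed level of the 10, of which DCN was the largest part, was 12 to 27.3 TPM in vehicle and 8.79 to 12.4 TPM with Aβ42. No marker of the list was at 0 in every library.

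Choroid plexus markers, whose epithelium lies on a basement membrane, summed to 3357.5 to 7586.6 TPM in vehicle and 2848.4 to 6675.6 TPM with Aβ42. Most of this sum was TTR, at 2805.2 to 7487.1 TPM over all libraries, with a log2 fold change of -0.09 (adjusted p 0.927). The median log2 fold change of the choroid plexus markers was -0.48, with 1 of 9 higher and 1 lower at an unadjusted p under 0.05. With the block 3 of the 9 passed, all lower: CLIC6, a chloride channel gene, at -0.57 (adjusted p 0.000309), and the transcription factor genes OTX2 at -0.66 (0.00612) and LMX1A at -0.71 (0.0433). Astrocyte markers had a median of -0.54 and summed to 233 to 280.3 TPM in vehicle and 179 to 234 TPM with Aβ42, with 1 of 8 higher and 1 lower at an unadjusted p. With the block 3 of the 8 passed, again all lower: S100B, a calcium-binding protein gene, at -1.25 (0.000941), the connexin gene GJA1 at -0.84 (0.00053), and SPARCL1, a matricellular protein gene, at -0.91 (0.0184). The shares over all genes were 12.4% higher and 11.5% lower at an unadjusted p, and 7.12% and 7.05% with the block. The part of these cells in the values of FN1, LAMB1 and the other members was not tested.

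Radial glia markers summed to 8858.6 to 9281 TPM in vehicle and 9058.1 to 9403.4 TPM with Aβ42, with a median log2 fold change of -0.01. At an unadjusted p under 0.05, 2 of 13 were higher, FABP7 at 0.14 and FAM107A at 0.16, both without overlap between the groups, and neither passed with the block. The 3 lower ones, which all passed with the block, were NES at -0.20 (adjusted p 0.0208), SLC1A3 at -0.22 (0.00919) and HOPX, a marker of outer radial glia, at -0.45 (0.000503). Of the 9 dorsal forebrain markers tested 0 were higher and 2 lower at an unadjusted p, EOMES at -0.83 (with the block, adjusted p 2.44e-06) and TBR1, a gene of early cortical neurons, at -0.18 (0.0203). With the block 3 passed, all lower, the third being OTX2. Over all genes 12.4% were higher and 11.5% lower at an unadjusted p, and 7.12% and 7.05% with the block.

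Neuron markers had a median of -0.14 and summed to 4813.8 to 5081.6 TPM in vehicle and 4487.8 to 4534.1 TPM with Aβ42. Of these 5 of 10 were lower at an unadjusted p, and with the block 0 were higher and 4 lower. Mural markers summed to 43 to 45.3 TPM in vehicle and 45.4 to 46 TPM with Aβ42, with 1 of 8 higher, TAGLN, an actin-binding protein gene, at 0.39 (with the block, adjusted p 0.0361). Of the 4 endothelial markers tested none had an unadjusted p under 0.05, and none passed with the block. For comparison, 12.4% of all genes were higher and 11.5% lower at an unadjusted p, and 7.12% and 7.05% with the block. The part of these cell types in the members' values was not tested either.

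Further basement membrane genes lay on both sides of 0. Of 25 further basement membrane genes 18 were tested, 1 was higher and 4 were lower at an unadjusted p under 0.05 (against 12.4% and 11.5% of all genes), with a median log2 fold change of -0.08. SMOC1, a secreted matrix protein, was at 27.7 ± 2.19 CPM in the vehicle and 21.2 ± 1.06 CPM in the Aβ42 group, a log2 fold change of -0.39 ± 0.08 (adjusted p 0.0691, with the block 0.00591) with no overlap. FRAS1, a basement membrane adhesion protein, was at -0.28 (0.114, with the block 0.024). FBLN2, the matrix glycoprotein fibulin-2, was at 0.42 (0.128, with the block 0.0383), and SMOC2, with 11 to 37 counts, at 0.75 (0.232). With the block 2 genes of this list passed as higher and 4 as lower (7.12% and 7.05% of all genes).

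Of 26 integrin ligands outside the members 24 were tested, and 5 were higher and 2 lower at an unadjusted p under 0.05 (12.4% and 11.5% of all genes), with a median log2 fold change of 0.10. With the block 3 passed as higher and 2 as lower (7.12% and 7.05%). Of these, 2 thrombospondin genes had the smallest adjusted p in their direction under the block and lay on opposite sides of 0. THBS2 was at 19.8, 19 and 18.1 CPM in vehicle and at 25.4, 24.6 and 29.3 CPM with Aβ42, with no overlap, and its log2 fold change was 0.48 ± 0.09 (adjusted p 0.0684, with the block 0.0021). THBS1, whose product is secreted by astrocytes and activates latent TGF-β, was at 12.4, 25.4 and 14.1 CPM in vehicle and at 3.23, 10.3 and 5.76 CPM with Aβ42. Its groups did not overlap either, and the log2 fold change was -1.42 ± 0.50 (adjusted p 0.175, with the block 7.32e-06). The others that passed with the block were CCN3, a matricellular protein gene, at 0.38 (0.00285), the nephronectin gene NPNT at 0.55 (0.0268), and SPP1, the osteopontin gene, at -0.52 (0.0296). VCAM1, the ligand of α4 integrins, was at -0.30 (0.112, with the block 0.0645), and ADAM15, a membrane metalloprotease with an integrin-binding motif, at 0.21 (0.115, with the block 0.0565).

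A further list of 32 genes held mainly proteins of the adhesion complex on the cytoplasmic side of integrins. It also held membrane tetraspanins (CD9, CD81, CD151 and TSPAN4) and other genes linked to integrins. Of the 32 genes 29 were tested, with a median log2 fold change of -0.01. At an unadjusted p under 0.05, 2 were higher and 4 lower (against 12.4% and 11.5% of all genes). ILK, the pseudokinase that binds integrin beta tails, was at 59.9 ± 1.88 CPM in the vehicle and 67.5 ± 5.16 CPM in the Aβ42 group (0.17 ± 0.06, adjusted p 0.148, with the block 0.0788). PARVA, the gene of α-parvin, which binds ILK, was at 27.2, 34.6 and 26.7 CPM in vehicle and at 16.8, 26.7 and 17.2 CPM with Aβ42. Here too the libraries numbered 2 were the highest of their groups, and the log2 fold change was -0.54 ± 0.20 (0.162, with the block 0.000542). With the block 1 gene of the list passed as higher, the tetraspanin gene CD9 at 0.34 (0.0462), and PARVA as lower (7.12% and 7.05% of all genes). CRK, a signalling adaptor of focal adhesions, was at -0.11 (0.169, with the block 0.157).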

How the data were processed

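Polyadenylated RNA of 3 vehicle and 3 Aβ42 libraries was sequenced after stranded library preparation, per the labels' protocols. The submitters' processing notes name FastQC, STAR 2.7.11b, featureCounts 2.0.6 and GRCh38, without roles; the annotation, the use of strand and the source of TPM are not given in the sources used here. The deposited table holds, for each gene and library, an estimated count and a TPM, both made by the authors; 86.9% to 87.5% of the deposited counts were whole, so reads shared between features may have been divided. The members and lists were chosen with earlier results of these data known.

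Estimated counts were rounded, genes were kept by filterByExpr, and groups were compared with edgeR 4.0.16 (R 4.3.3): TMM scaling, quasi-likelihood test with robust dispersion, two-sided, Benjamini-Hochberg adjustment over 13842 genes, threshold 0.05. CPM are TMM-scaled. Fold changes are given as log2(Aβ42/vehicle), and each SE is the fold change divided by the root of the F statistic. The labels do not say whether libraries came from separate cultures, so p-values measure only the spread between these samples, which may be technical. Chi-square per gene between libraries was 3.16 to 21.1, so none was a duplicate. The closest pair, at 3.16, was vehicle replicate 1 and Aβ42 replicate 2. Aβ42 replicate 2 was at 7.7 and 4.58 from vehicle replicates 2 and 3. It was further, at 9.4 and 8.48, from Aβ42 replicates 1 and 3. Values after ± are SDs between libraries or the SE of the fit, the floor for a count of 0 covers counting error only, and the biological coefficient of variation was 6.75%.

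Deviations from the group means correlated between libraries of the same number at 0.181, 0.388 and 0.129 for numbers 1 to 3 over the 12186 genes averaging 50 counts or more. All were above 0.1, so same-numbered libraries were treated as pairs, from the data alone; a deviation shared by the libraries numbered 2 can by itself raise the other values.

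Named members were those with an unadjusted p under 0.05 or groups that do not overlap, plus ITGB1, ITGA6, ITGAV, LAMA1, LAMB1, LAMC1, FN1, HSPG2, AGRN and DAG1; of each further list, the 2 genes with the smallest p in each direction. ITGB5, NID1, DCN, COL1A1 and further list genes that passed with the block were added after their values were seen. Results of some genes that the rule or the lists hold are not reported here, although counts over members and lists include them. Alternatives were other scalings and filters, DESeq2 1.42.0, limma-voom and limma 3.58.1 on log2(TPM + 1) and log2(TPM + 0.1), a length correction, the replicate block, and leaving out each library. Gene positions are from GENCODE on GRCh38. The scripts were tested on simulated data.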

Additional observations from a re-analysis of the deposited data

How the results depend on the processing

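Precision was limited by 3 libraries per group and, in ITGA4, ITGA2B, LAMA2 and ITGB4, by low counts. With the replicate block, 4 members passed after adjustment as higher and 6 as lower, where the fit without it gave 0 and 0 (12 at an unadjusted p under 0.05), and the block with a length correction gave the same 4 and 6. With both libraries numbered 2 left out of the block, chosen after the data were seen, the counts were 4 and 5 (14.7% of all genes in either direction), those at an unadjusted p 8 and 8 (29.8%), and the median log2 fold change was -0.07. The block changed no call of a member other than those given in the report. DESeq2 gave 2 higher and 3 lower after adjustment. Leaving out 1 library gave 0 to 7 members higher and 0 to 5 members lower, and it was only when Aβ42 replicate 2 was left out that any passed. At an unadjusted p the main counts of 7 higher and 5 lower ran from 4 to 8 and from 2 to 7 when 1 library was left out. The share of all genes in either direction moved too. It was 23.9% with every library, and ran from 13.4% (without Aβ42 replicate 3) to 37% (without Aβ42 replicate 2). The lowest member counts, 4 and 2, came without Aβ42 replicate 3, and 2 lower also came without vehicle replicate 2 and 3 without Aβ42 replicate 1. On log2(TPM + 1) and log2(TPM + 0.1) 2 and 3 members were higher at an unadjusted p, and 6 were lower on each scale. Of all genes 23.7% and 23.6% had such a p on these scales, in either direction.

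Groups did not overlap in 5 members higher and 2 lower. This became 3 higher on log2(TPM + 1), 1 lower under upper-quartile scaling and 1 lower with the length correction, and lay between 5 and 10 higher and between 2 and 11 lower without 1 library, with 10 and 11 without Aβ42 replicate 2 and 4, 4 and 6 lower without vehicle replicates 1, 2 and 3. With fewer libraries groups overlap less often in any gene: the share of all genes was 13.6% higher and 13.4% lower with every library, 26.9% and 26.7% without Aβ42 replicate 2, and lay between 15.8% and 21.1% without any other library. The median log2 fold change of 0.02 was -0.04 on log2(TPM + 0.1), where the median of all genes was -0.04, and ran from -0.07 (without Aβ42 replicate 2) to 0.02 without 1 library. Of the 19 members followed, 16 kept their sign in every alternative, and 12 passed in at least 1. ITGA6 reversed to -0.03 on both TPM scales, to -0.01, -0.02 and -0.07 without vehicle replicates 1 and 2 and Aβ42 replicate 2 (range -0.07 to 0.08 without 1 library), and to -0.10 with the libraries numbered 2 left out of the block. ITGAV reversed to -0.02 on both TPM scales, to -0.00 without vehicle replicate 2 and to -0.02 without Aβ42 replicate 1. LAMC1 reversed to 0.01 with the length correction, with and without the block. The cause was not tested.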
